A study of Homo sapiens with 8 samples.

Results

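The genes described here are 9 that mark neural stem cells and glial or neuronal progenitors: NES, SOX2, SOX4, SOX9, SOX11, MSI1, POU3F2, OLIG2 and PROM1. They were chosen by name among the 58735 genes of the deposited expression table, and each name matched 1 gene. RNA had been sequenced from LN229, a line grown from a human glioblastoma. A set of 4 samples had received the proteasome inhibitor bortezomib (7.5 nM) and the histone deacetylase inhibitor panobinostat (15 nM) for 48 h. This pair of drugs is called the combination. The other 4 samples were controls, also at 48 h, which the treatment protocol gives as DMSO and a sample label as untreated. Both groups are the same line without any stated genetic change. The RNA protocol in the labels mentions brain tissue, whereas every sample is labelled LN229. Nothing in the labels says that samples of a group were separate cultures, so p-values reflect the scatter among these 8 libraries alone, and that scatter may be technical.

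Neural stem cells are kept undifferentiated and self-renewing by a small circuit of transcription factors, in which SOX2 and class III POU factors such as POU3F2 bind DNA side by side. In rodent neural progenitors such a SOX and POU pair acts on an intronic enhancer of the nestin gene. Glioblastoma cells with stem-like growth are known to use many of the same factors, and the proneural subtype of glioma is marked by OLIG2 and related oligodendrocyte lineage genes.

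Levels are FPKM, read counts per length of gene and per size of library, as the authors scaled them. The reads assigned to genes numbered 15198520 to 17324292 in the combination samples and 15189251 to 16795929 in the DMSO samples (exact permutation test, two-sided p = 0.571, n = 4 each). Mitochondrial genes took 11.7% to 15.1% of reads after the combination and 4.31% to 6.69% in DMSO (two-sided p = 0.0286 by exact permutation, the lowest that n = 4 each allows). A gene of 1 kb with 3 reads stood at 0.173 to 0.197 FPKM, and longer genes have more reads at the same FPKM. Genes with a read numbered 27742 to 29035 in the combination samples and 25046 to 25719 in the DMSO samples (two-sided p = 0.0286 by exact permutation, n = 4 each); the part of this in the values of low genes was not tested. In these bulk samples, fewer cells expressing a gene and less RNA of it per cell cannot be told apart.

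The genes fell into 2 classes by abundance in LN229. NES, SOX2, SOX4, POU3F2 and OLIG2 had a mean of at least 1 FPKM over the 8 samples and were tested. POU3F2 reached that limit through the DMSO samples alone, at 0.980 FPKM after the combination and 5.16 FPKM in DMSO. SOX9, SOX11, MSI1 and PROM1 lay below that limit, with 0 to 53 reads per sample, and are given by their values and reads. Among the 5 tested, NES, SOX2, SOX4 and POU3F2 were lower after the combination and OLIG2 was higher, at an adjusted p under 0.05 (limma, Benjamini-Hochberg adjustment over 13296 genes). That is 4 lower and 1 higher, where 41.0% of all genes tested were called lower and 36.9% higher. In the fit without a filter on low values, all 9 could be tested: 4 were lower, 2 were higher (OLIG2 and SOX9) and 3 were not called, beside 16.5% lower and 20.0% higher among the 38736 genes of that fit.

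Upstream sequences are shown for the 3 genes with the largest fitted decreases, so that they can be read beside each other. Any role of these sequences in the decreases was not tested. Each is the 250 bases before the RefSeq start (GRCh38.p14), 5′ to 3′ on the gene's own strand. Capitals mark the CCAAT box, the GC box GGGCGG and the TATA box TATAAA on either strand. The NES sequence lies at chr1:156677408-156677657 on the minus strand, that of SOX2 at chr3:181711675-181711924 on the plus strand and that of POU3F2 at chr6:98834324-98834573 on the plus strand.
NES: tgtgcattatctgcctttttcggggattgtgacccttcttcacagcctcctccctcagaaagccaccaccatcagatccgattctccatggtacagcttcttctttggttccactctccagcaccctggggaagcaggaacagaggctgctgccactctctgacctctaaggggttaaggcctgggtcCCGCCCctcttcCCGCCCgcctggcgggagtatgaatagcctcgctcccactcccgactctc
SOX2: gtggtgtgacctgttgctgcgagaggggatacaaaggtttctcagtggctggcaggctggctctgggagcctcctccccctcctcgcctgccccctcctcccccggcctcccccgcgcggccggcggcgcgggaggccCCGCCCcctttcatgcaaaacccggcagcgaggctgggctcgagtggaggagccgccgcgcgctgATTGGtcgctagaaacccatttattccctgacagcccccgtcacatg
POU3F2: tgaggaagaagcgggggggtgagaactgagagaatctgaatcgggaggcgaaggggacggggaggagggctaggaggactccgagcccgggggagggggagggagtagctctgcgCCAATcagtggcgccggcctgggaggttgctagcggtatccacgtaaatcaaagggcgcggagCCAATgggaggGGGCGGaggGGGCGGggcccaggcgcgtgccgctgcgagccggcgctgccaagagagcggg

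The GC-box letters GGGCGG occurred 2 times before NES, 1 time before SOX2 and 2 times before POU3F2, and in 42.6% of the 35116 RefSeq upstream windows of this length. CCAAT occurred 1 time before SOX2 and 2 times before POU3F2 and was not in the NES window, against 32% of all windows. None of the 3 windows held TATAAA, present in 10.7% of all. ACAAAG, letters that SOX factors can bind, occurred 1 time before SOX2 (13.7% of all windows), and the octamer ATGCAAAT of POU factors was in none of the 3 (1.63% of all). The windows differed in CpG content, with 8 CpG before NES, 20 before SOX2 and 22 before POU3F2, where the median of all windows was 11. A match of letters is a description and not a bound site. RefSeq windows were also found for SOX4 and PROM1, so that 5 of the 9 genes matched. The window of SOX4, which was also lower, held CCAAT 4 times and GGGCGG 0 times. That window (chr6:21593501-21593750) lies inside the single SOX4 exon of GENCODE 29 (21592768 to 21598619). By that annotation it is not upstream of the gene.

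NES encodes nestin, an intermediate filament protein of neural progenitors that assembles with vimentin. It was the most abundant of the 9 transcripts in both groups. It stood at 60.1, 58.5, 57.8 and 58.0 FPKM in the combination samples, against 184, 185, 191 and 195 FPKM in the DMSO samples. The groups lay far apart, and values within a group were close. The mean was 58.6 ± 1.05 FPKM after the combination and 188 ± 5.29 FPKM in DMSO (SD, n = 4 each), 3.22-fold lower, which on log2(FPKM + 1) was -1.67 ± 0.0302 (SE, adjusted p = 1.12e-10). By level, NES ranked 644 of 13296 tested genes after the combination and 149 in DMSO. The gene spans 156668763 to 156677397 of chromosome 1 on the minus strand (GRCh38), with 4 merged exons and no exon of another gene over them.

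SOX2, an HMG-box factor of the SoxB1 group that keeps neural stem cells undifferentiated, showed the largest fold decrease of the 9. It had 5.38, 5.56, 6.77 and 5.39 FPKM in the combination samples, against 56.8, 52.6, 52.9 and 55.0 FPKM in the DMSO samples. All combination samples lay far below all DMSO samples, and combination sample 3 was the highest of its group. The means were 5.77 ± 0.668 FPKM after the combination and 54.3 ± 1.94 FPKM in DMSO (SD, n = 4 each), a 9.40-fold lower level. The log2 fold change was -3.03 ± 0.0643 (SE, adjusted p = 2.50e-10), rank 119 from the lowest among 13296 genes. By level, SOX2 ranked 6260 after the combination and 716 in DMSO. The values rest on 206 to 265 reads per combination sample and 2111 to 2480 per DMSO sample.

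SOX2 is a single-exon gene (chromosome 3, 181711924 to 181714436, plus strand, GRCh38) inside an intron of the long non-coding gene SOX2-OT, with no shared exon bases. SOX2-OT, looked at after its values were seen, was below the filter and not tested, with 0.0223 to 0.0481 FPKM after the combination and 0.242 to 0.284 FPKM in DMSO, on 76 and 549 reads in all.

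POU3F2 (BRN2), a class III POU factor that works with SOX2 in neural progenitors, had a log2 fold change near that of NES. Its levels were 0.861, 1.09, 0.934 and 1.04 FPKM in the combination samples, against 5.27, 4.89, 5.38 and 5.11 FPKM in the DMSO samples. The groups did not overlap, and each kept a narrow range. The mean fell to 0.980 ± 0.103 FPKM after the combination, against 5.16 ± 0.210 FPKM in DMSO (SD, n = 4 each), 5.27-fold lower. The log2 fold change of -1.64 ± 0.0558 (SE, adjusted p = 5.14e-09) is held in by the added 1 FPKM at these levels: it was -2.29 with 0.1 FPKM added, -0.76 with 5 FPKM and -2.46 with voom on the recovered reads. POU3F2 is a single exon on chromosome 6 (98834592 to 98839470, plus strand, GRCh38), and no exon of another gene overlaps it.

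SOX4 and SOX11 are SoxC factors that act in immature neurons and progenitors once SoxB1 factors have set neural fate. SOX4 fell more moderately than SOX2. It had 5.71, 7.27, 7.10 and 6.43 FPKM in the combination samples, against 11.2, 11.6, 10.9 and 12 FPKM in the DMSO samples. The groups did not overlap. The means of 6.62 ± 0.710 FPKM after the combination and 11.4 ± 0.458 FPKM in DMSO (SD, n = 4 each) differed 1.72-fold (log2 fold change -0.71 ± 0.0663, SE, adjusted p = 6.65e-06). SOX4 lies on chromosome 6 (21592768 to 21598619, plus strand, GRCh38), with 2.87% of its exon length under an exon of AL512380.2 on the opposite strand. AL512380.2 had 5 reads in all combination samples and 10 in all DMSO samples.

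SOX11 was scarce in both groups. It stood at 0.0527, 0.154, 0.0810 and 0.150 FPKM in the combination samples, against 0.185, 0.230, 0.124 and 0.182 FPKM in the DMSO samples, on 7 to 23 and 18 to 32 reads per sample. The groups overlapped. The means were 0.110 ± 0.0507 FPKM after the combination and 0.180 ± 0.0436 FPKM in DMSO (SD, n = 4 each), 1.64-fold lower. Without a filter on low values, SOX11 was not called on the scale with 1 FPKM added (limma, log2 fold change -0.09 ± 0.0483, SE, adjusted p = 0.206). SOX11 (chromosome 2, 5692667 to 5701385, GRCh38) shares 0.849% of its exon length with AC108025.2 on the same strand, which had 0 and 2 reads in the groups.

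SOX9, a SoxE factor of glial progenitors, neural crest and cartilage, stood higher after the combination although it remained under 1 FPKM. It had 0.75, 0.684, 0.865 and 0.587 FPKM in the combination samples, against 0.117, 0.0796, 0.122 and 0.161 FPKM in the DMSO samples. The lowest combination sample was above the highest DMSO sample. Reads numbered 37 to 53 per combination sample and 5 to 10 per DMSO sample. The means were 0.721 ± 0.117 FPKM after the combination and 0.12 ± 0.0333 FPKM in DMSO (SD, n = 4 each), a ratio of 6.02. Without a filter on low values it was called higher (log2 fold change 0.62 ± 0.0764, SE, adjusted p = 0.000233) on the scale with 1 FPKM added. SOX9 (chromosome 17, 72121020 to 72126420, plus strand, GRCh38) has 3 exons inside the span of SOX9-AS1 with none shared. SOX9-AS1, named after its values were seen, had 40 reads in the combination samples and 10 in the DMSO samples.

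OLIG2, a basic helix-loop-helix factor of oligodendrocyte progenitors and of proneural glioma, was the only one of the 5 tested genes that rose. It had 3.39, 2.97, 3.35 and 4.30 FPKM in the combination samples, against 2.38, 1.93, 2.64 and 2.40 FPKM in the DMSO samples. The groups did not overlap but lay close, and combination sample 4 was the highest of its group. The mean was 3.50 ± 0.566 FPKM after the combination and 2.34 ± 0.300 FPKM in DMSO (SD, n = 4 each), a ratio of 1.5. The log2 fold change was 0.43 ± 0.0985 (SE, adjusted p = 0.00300), and 0.21 with 5 FPKM added. The change rests on 170 to 231 reads per combination sample and 103 to 148 per DMSO sample. OLIG2 lies on chromosome 21 (33025845 to 33029196, plus strand, GRCh38). Its partner gene OLIG1 was below the filter and had 4 reads in the combination samples and 17 in the DMSO samples.

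The remaining markers were hardly transcribed in LN229. MSI1, which encodes the RNA-binding protein Musashi-1 of neural stem cells, had 3 to 6 reads per combination sample and 1 to 5 per DMSO sample. Its levels were 0.0606 to 0.127 FPKM and 0.0194 to 0.102 FPKM in these groups. PROM1 encodes CD133, a membrane glycoprotein used to sort stem-like glioma cells. It had 4 to 8 reads per combination sample and 0 to 5 per DMSO sample, at 0.0336 to 0.0706 FPKM and 0 to 0.0387 FPKM, and 2.23% of its exon length is shared with the more abundant gene FGFBP2 on the same strand. The groups of both genes overlapped, and neither was called (adjusted p = 0.145 for MSI1 and 0.243 for PROM1 in the limma fit without a filter).

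**Figure D1:**
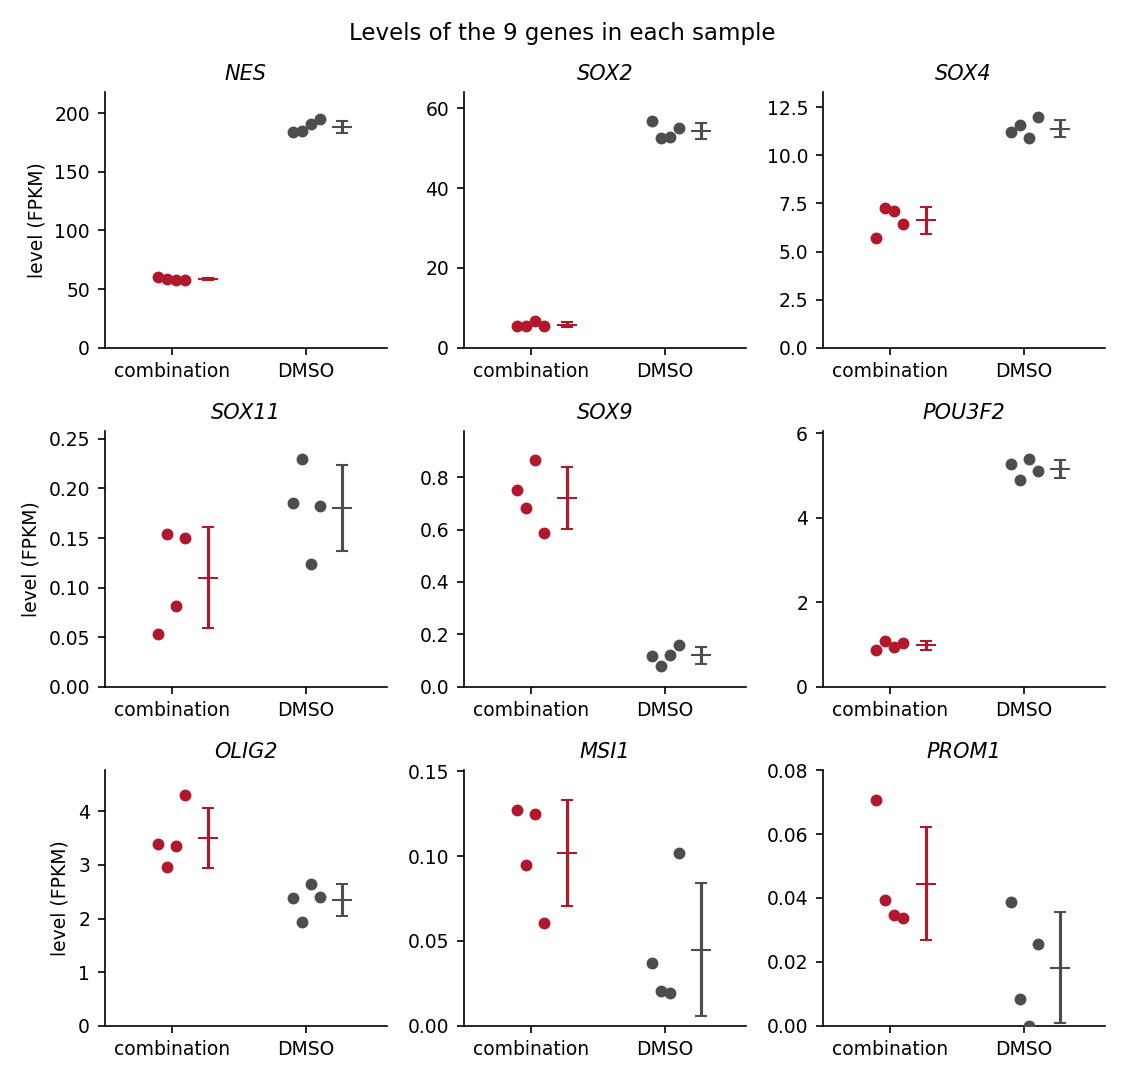
Level (FPKM, axis from 0) of each of the 9 genes in the 4 combination samples (red) and the 4 DMSO samples (grey); points are samples, and the line with bars beside them is the mean ± SD. NES, SOX2, SOX4 and POU3F2 lie lower after the combination, OLIG2 and SOX9 lie higher, and the groups of SOX11, MSI1 and PROM1 overlap.

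The order of the genes by level changed with treatment. After the combination it ran NES, SOX4, SOX2, OLIG2, POU3F2, SOX9, SOX11, MSI1 and PROM1. In DMSO it ran NES, SOX2, SOX4, POU3F2, OLIG2, SOX11, SOX9, MSI1 and PROM1. SOX2 overlapped SOX4 after the combination and stood clear above it in DMSO, and OLIG2 stood above POU3F2 after the combination and below it in DMSO. Neighbours whose sample ranges overlapped were SOX4 and SOX2, POU3F2 and SOX9, SOX11 and MSI1, and MSI1 and PROM1 after the combination, and SOX11 and SOX9, SOX9 and MSI1, and MSI1 and PROM1 in DMSO.

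**Figure D2:**
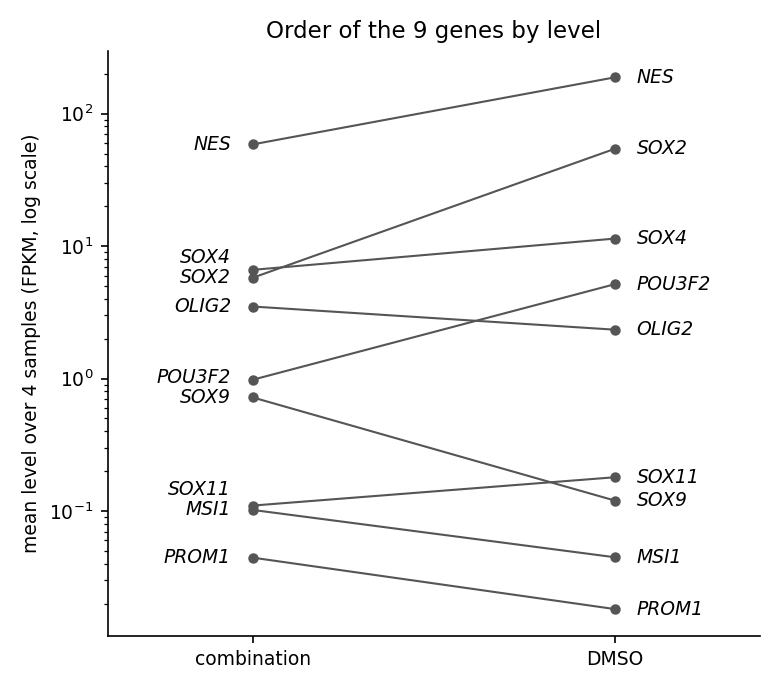
Mean level over 4 samples (FPKM, log scale) of each gene after the combination (left) and in DMSO (right), joined by a line. SOX2 stood at 5.77 FPKM after the combination and 54.3 FPKM in DMSO, and its line crosses that of SOX4; the line of OLIG2 crosses that of POU3F2.

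Ratios between these genes within a sample do not depend on how libraries are scaled. There were 1.25 to 2.02 FPKM of SOX2 per FPKM of OLIG2 in the combination samples and 20.0 to 27.3 in the DMSO samples. SOX2 relative to NES was 0.0895 to 0.117 after the combination and 0.277 to 0.309 in DMSO, without a test. POU3F2 relative to NES also differed, at 0.0143 to 0.0186 and 0.0263 to 0.0287 in these groups. In contrast, SOX4 relative to NES was 0.0949 to 0.124 after the combination and 0.0571 to 0.0627 in DMSO. The groups overlapped in none of these 4 ratios, so the decreases of NES, SOX2, POU3F2 and SOX4 were unequal in size.

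**Figure D3:**
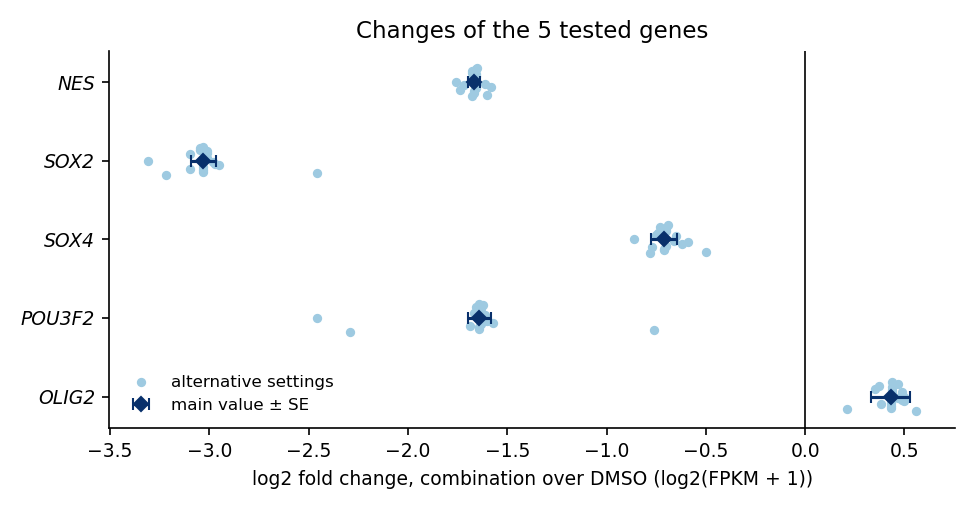
Log2 fold change (combination over DMSO, log2(FPKM + 1)) of the 5 tested genes; dark diamonds are the main values ± SE and pale points the alternative settings. NES, SOX2, SOX4 and POU3F2 stay left of 0 and OLIG2 stays right of 0 under each setting drawn; the outlying points of SOX2 and POU3F2 are pseudocounts and voom.

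Genes with the most similar values over the 8 samples were found by Pearson correlation of log2(FPKM + 1), which here mostly follows the separation of the 2 groups and is given as a description. For NES they were SHISAL1 (r = 0.9999) and CIITA (r = 0.9998), for SOX2 DBF4B and TUBA1B (r = 0.9996 each). For SOX4 they were DOCK10 (r = 0.9964) and PSAT1 (r = 0.9931), for POU3F2 FAM78B (r = 0.9995) and DZIP1 (r = 0.9994), and for OLIG2 EIF4BP7 (r = 0.9812) and CHCHD4 (r = 0.9764). TUBA1B, an alpha-tubulin gene, stood at 38.3 ± 2.26 FPKM after the combination and 253 ± 8.66 FPKM in DMSO.

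The wider lists below are described by counts among genes that averaged 1 FPKM or more. A gene low in 1 group could pass that filter through the other, so counts without a filter, a choice made after the data were seen, are given for the lists of this pathway. Over all genes, 41.0% were lower and 36.9% higher with the filter, and 16.5% lower and 20.0% higher without it.

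Most tested neural stem and progenitor genes were lower. Of 28 listed, 21 could be tested, and 16 were lower and 5 higher, with a median log2 fold change of -0.80 where all genes tested had -0.03. Without a filter, 17 were lower and 6 higher of 27. The shares over all genes were 41.0% lower and 36.9% higher with the filter, and 16.5% and 20.0% without it. TNC, the matrix protein tenascin-C of the stem cell niche, stood at 33.5 ± 1.25 FPKM after the combination and 160 ± 6.97 FPKM in DMSO (log2 fold change -2.22, adjusted p = 1.12e-10). FABP7, a fatty acid-binding protein of radial glia, stood at 2.40 ± 0.142 and 16.3 ± 0.947 FPKM in these groups (-2.35, adjusted p = 2.48e-10). Higher were the adhesion gene L1CAM, at 26.4 ± 1.03 FPKM after the combination and 3.09 ± 0.168 FPKM in DMSO (2.74, adjusted p = 5.56e-11), and CD24, at 2.10 ± 0.350 and 0.0250 ± 0.0259 FPKM (1.59, adjusted p = 3.31e-07). CD24 reached the filter through the combination samples alone, and LHX2 of this list through the DMSO samples alone. Reads of CD24 can be shared with its processed copies.

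Intermediate filament genes were mixed in direction: VIM and SYNM were lower, as NES was, and NEFL was higher. VIM, which encodes vimentin, stood at 116 ± 5.65 FPKM after the combination and 315 ± 18.1 FPKM in DMSO (log2 fold change -1.43, adjusted p = 7.07e-09). SYNM, which encodes synemin, stood at 14.1 ± 0.517 and 59.0 ± 1.48 FPKM in these groups (-1.99, adjusted p = 9.62e-11). NEFL, the light neurofilament gene, stood at 3.39 ± 0.482 FPKM after the combination and 0.201 ± 0.101 FPKM in DMSO (1.87, adjusted p = 1.11e-07). These were the 3 of 9 listed filament genes that passed the filter, NEFL through the combination samples alone. Over all genes, 41.0% were lower and 36.9% higher with the filter, and 16.5% lower and 20.0% higher without it. Without a filter 4 of 8 were higher and 3 lower: DES (desmin, 132 reads in the combination samples and 2 in the DMSO samples), PRPH (peripherin, 161 and 11 reads) and NEFM (medium neurofilament, 53 and 0 reads) were higher beside NEFL, and GFAP was lower beside VIM and SYNM. Of 9 listed relatives of the non-SOX genes, the 3 tested (SYNM, VIM and MSI2) were lower, while without a filter 4 of 8 were lower and 3, POU3F1, POU3F3 and PROM2, were higher. MSI2 (named after its values were seen) was lower (-0.52, adjusted p = 4.03e-06) at 2.30 ± 0.0554 FPKM after the combination and 3.75 ± 0.183 FPKM in DMSO. POU3F3 had 86 reads in the combination samples and 13 in the DMSO samples, and PROM2 had 296 and 42, both also chosen after their values were seen.

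Most tested genes of the wider SOX family were lower. Of 15 other SOX genes 7 could be tested, 6 were lower and 1 was higher (median -1.28), and the counts were the same without a filter among 11 genes. Over all genes 41.0% were lower with the filter and 16.5% without it. SOX6, SOX8 and SOX15 reached the filter through the DMSO samples alone. SOX10, a SoxE factor of the oligodendrocyte and Schwann lineages, stood at 35.2 ± 0.837 FPKM after the combination and 301 ± 14.9 FPKM in DMSO, with a fold change of -3.06 ± 0.0396 on the log2 scale (SE, adjusted p = 2.65e-11). The SoxD gene SOX5 stood at 1.27 ± 0.106 and 7.35 ± 0.194 FPKM in these groups (-1.88, adjusted p = 7.58e-10). SOX12, the third SoxC gene, was the one that rose, to 26.4 ± 0.851 FPKM after the combination, against 22.7 ± 1.16 FPKM in DMSO (0.21, adjusted p = 0.00120). SOX1, SOX3, SOX14 and SOX17 had no read in any library.

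Factors that define tumour-propagating glioblastoma cells, a circuit that includes SOX2, POU3F2 and OLIG2, were mostly low in this line. Of the 16 others listed, 6 could be tested, 5 were lower and HEY2 was not called (median -1.24), with SOX8 and LHX2 reaching the filter through the DMSO samples alone. The lower share over all genes was 41.0% with the filter and 16.5% without it. Without a filter 7 of 15 were lower and 3 were higher: KLF15 (267 reads in the combination samples and 74 in the DMSO samples), MYCL (91 and 14 reads) and POU3F3. SOX8 stood at 0.117 ± 0.0275 FPKM after the combination and 4.0 ± 0.477 FPKM in DMSO (-2.16, adjusted p = 1.00e-08). SALL2, the fourth core factor of that circuit, lay below the filter, at 0.592 ± 0.10 and 0.752 ± 0.191 FPKM in these groups. Its sample ranges overlapped.

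Of 26 listed proneural and neurogenic factors, 10 passed the filter and were lower (median -0.91), of which EBF3, PROX1 and EBF1 reached it through the DMSO samples alone. Without a filter 11 of 23 were lower, 10 were not called and 2, DLL3 and ATOH1, were higher. All genes had 41.0% lower with the filter and 16.5% without it. DLX1, a homeobox factor of interneuron progenitors, stood at 4.34 ± 0.151 FPKM after the combination and 21.5 ± 0.653 FPKM in DMSO (-2.08, adjusted p = 9.62e-11). TCF12, an E protein that pairs with proneural factors, stood at 4.20 ± 0.0842 and 11.1 ± 0.338 FPKM in these groups (-1.22, adjusted p = 1.50e-09). NEUROG1, a proneural factor of neuronal progenitors, had no read in any library. DLL3, a Notch ligand of proneural glioma, had 151 reads in the combination samples and 1 in the DMSO samples, and ATOH1, a proneural factor, had 15 and 1.

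Proneural glioma and oligodendrocyte progenitor markers were mostly lower, unlike OLIG2. Of 14 listed 9 could be tested, 7 were lower and 2 higher (median -2.24). Without a filter 9 of 14 were lower and 4 higher. Over all genes 41.0% were lower and 36.9% higher with the filter, and 16.5% and 20.0% without it. ERBB3, a neuregulin receptor, stood at 5.38 ± 0.374 FPKM after the combination and 47.7 ± 1.25 FPKM in DMSO (-2.93, adjusted p = 5.29e-11). BCAN, which encodes the brain proteoglycan brevican, stood at 2.44 ± 0.384 and 0.354 ± 0.0334 FPKM in these groups (1.34, adjusted p = 5.86e-07). It reached the filter through the combination samples alone. NCAM1, a neural adhesion gene, stood at 7.19 ± 0.221 FPKM after the combination and 3.32 ± 0.155 FPKM in DMSO (0.92, adjusted p = 3.41e-08).

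Of 11 listed cartilage targets of SOX9, 5 were tested and were lower (median -1.88), SOX6 among them through the DMSO samples alone. The lower share over all genes was 41.0% with the filter and 16.5% without it. Without a filter 8 of 11 were lower and 0 higher, in the same fit that called SOX9 higher (limma; the other 3 were not called). COL9A3 stood at 25.7 ± 1.93 FPKM after the combination and 276 ± 15.8 FPKM in DMSO (-3.38, adjusted p = 1.03e-10), and COL11A2 at 1.20 ± 0.186 and 12.2 ± 0.524 FPKM (-2.59, adjusted p = 6.99e-10). These genes also respond to other SoxE and SoxD factors, and the part of any SOX factor in their levels was not tested. Of 6 listed neuronal targets of SOX4 and SOX11, 5 could be tested, 3 were higher and 2 lower (median 0.28), beside 36.9% higher and 41.0% lower among all genes, and nothing is read from so few. The counts were the same without a filter. The microtubule gene MAP2 stood at 15.5 ± 0.305 FPKM after the combination and 6.83 ± 0.137 FPKM in DMSO (1.07, adjusted p = 1.50e-09), and STMN1, which destabilises microtubules, at 11.2 ± 0.540 and 77.0 ± 4.05 FPKM (-2.68, adjusted p = 1.03e-10). DPYSL3, a growth cone protein, was also higher, at 13.5 ± 0.246 and 10.9 ± 0.449 FPKM (0.28), and TEAD2, a partner of YAP, was lower, at 2.0 ± 0.169 and 4.30 ± 0.597 FPKM (-0.81).

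REST, a repressor that silences neuronal genes through corepressors with histone deacetylases, and the genes listed with it did not share a direction. Of 10 listed genes 9 could be tested, 3 were higher and 5 lower, with a median of -0.20, beside 36.9% higher and 41.0% lower over all genes. Without a filter 2 of 10 were higher and 6 lower, beside 20.0% higher and 16.5% lower over all genes of that fit. With quantile normalization 3 were lower in place of 5. RCOR3 was higher by a narrow margin (adjusted p = 0.0456). REST itself stood at 4.33 ± 0.261 FPKM after the combination and 5.16 ± 0.305 FPKM in DMSO (-0.21, adjusted p = 0.00462). PTBP1, a splicing repressor of neuronal exons, stood at 26.8 ± 0.488 and 65.3 ± 1.47 FPKM in these groups (-1.25, adjusted p = 3.63e-10). KDM1A, a histone demethylase, stood at 37.3 ± 1.57 FPKM after the combination and 27.4 ± 0.903 FPKM in DMSO (0.43, adjusted p = 4.83e-06). EHMT2, a histone methyltransferase, was lower, at 5.91 ± 0.388 and 9.77 ± 0.414 FPKM in these groups (-0.64), and the deacetylase HDAC2 was higher, at 6.26 ± 0.141 and 5.44 ± 0.348 FPKM (0.18).

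**Figure D4:**
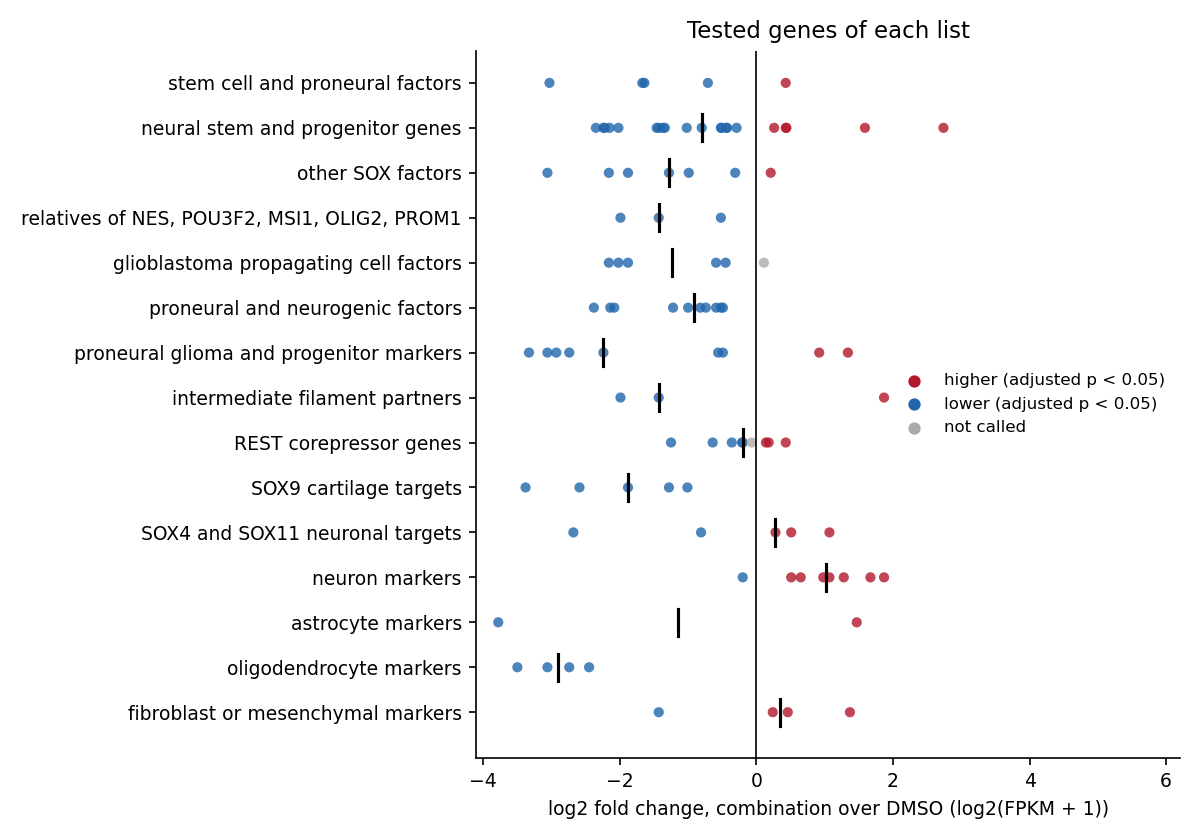
Log2 fold change (combination over DMSO, log2(FPKM + 1)) of each tested gene in every list with a tested gene; each point is a gene, coloured by its call, and black bars are list medians (none is drawn for the top row). Genes averaging under 1 FPKM are not drawn. The 10 drawn proneural and neurogenic factors lie left of 0 (median -0.91), and 7 of 8 tested neuron markers lie right of it (median 1.03). Over all genes tested, 41.0% were lower and 36.9% higher. PROX1, EBF1 and EBF3 reached the filter through the DMSO samples alone, and STMN2, SYN1 and NEFL through the combination samples alone. Without a filter the medians of these 2 lists were -0.18 and 0.58, and 10 of 23 proneural and neurogenic factors were not called.

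Markers of mature neural cells also differed between the groups, beside 36.9% higher and 41.0% lower among all genes tested. Of 12 neuron markers 8 were tested, 7 were higher and 1, SYT1, was lower, a call lost with upper-quartile factors and with quantile normalization. Of the 7, STMN2, SYN1 and NEFL reached the filter through the combination samples alone, and the counts were the same without a filter. The summed level of the 12 was 43.7 to 46.7 FPKM after the combination and 21.0 to 22.4 FPKM in DMSO, while DCX had 1 read in each group. All 4 tested of 7 oligodendrocyte markers were lower, with a sum of 44.2 to 46.2 FPKM after the combination and 366 to 417 FPKM in DMSO, and MBP was near 0 at 0.0216 and 0.0215 FPKM. SOX10 made up most of both sums, at 35.2 ± 0.837 FPKM after the combination and 301 ± 14.9 FPKM in DMSO. Of 7 astrocyte markers 2 were tested, S100B lower (17.8 ± 0.823 and 257 ± 6.59 FPKM) and GJA1 higher (22 ± 0.393 and 7.32 ± 0.249 FPKM), with a sum of 40.0 to 43.2 FPKM after the combination and 257 to 272 FPKM in DMSO. Most of the DMSO sum was S100B. GFAP, the defining astrocyte filament, was at 0.0414 ± 0.0236 FPKM and 0.220 ± 0.00415 FPKM in these groups.

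Of 7 fibroblast or mesenchymal markers 4 were tested, 3 higher and 1 lower (VIM), with a sum of 304 to 324 FPKM after the combination and 466 to 495 FPKM in DMSO. Most of the DMSO sum was VIM, at 116 ± 5.65 FPKM after the combination and 315 ± 18.1 FPKM in DMSO. FN1, among the higher, stood at 192 ± 12.4 and 163 ± 5.83 FPKM in these groups. COL1A1, among the higher, reached the filter through the combination samples alone. None of 7 microglia or 6 endothelial markers reached the filter. Without it, 2 of 6 microglia markers and 4 of 6 endothelial markers were higher and 1 microglia marker was lower. Over all genes, 36.9% were higher and 41.0% lower with the filter, and 20.0% higher and 16.5% lower without it. Reads in the combination and DMSO samples were 131 and 35 for CSF1R, 44 and 6 for ITGAM, and 3 and 21 for P2RY12. The called endothelial markers ran from CDH5 (14 and 0 reads) to VWF (335 and 107 reads). Microglia markers summed to 0.422 to 0.876 FPKM after the combination and 0.165 to 0.443 FPKM in DMSO, with AIF1 at 0 in every library. Endothelial markers summed to 1.18 to 1.4 FPKM and 0.197 to 0.294 FPKM in these groups. The part of a change in cell state or cell mixture in the values of the 9 genes was not tested. Scaled by the reads of nuclear genes, which removes the mitochondrial share, the log2 fold changes were -2.98 for SOX2, -1.61 for NES, -1.60 for POU3F2, -0.66 for SOX4 and 0.47 for OLIG2.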

How the data were processed

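RNA-seq of 8 LN229 samples (4 combination, 4 DMSO) was used. Values are FPKM in a single table that the authors deposited beside gene lengths. Bowtie 0.12.2, mm8 and GRCh37 are listed, with no role, in the submitters' processing notes. How reads were counted is not stated there. All 58735 identifiers, start and end positions and lengths equal those of GENCODE 29 on GRCh38, whose coordinates are printed. FPKM times length was a whole multiple of 1 step per column (100% of values within 0.02), which gave back the reads. Statements on 3 reads cover counting error only. Strandedness is not given, so reads of overlapping antisense genes cannot be told apart.

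Group differences were fitted with limma 3.58.1 in R 4.3.3 (trend option, group as the only term) on log2(FPKM + 1). The 13296 genes averaging 1 FPKM or more were tested, with Benjamini-Hochberg adjustment and calls at an adjusted p under 0.05. Fold changes on this scale understate the change of low genes. The library size that the authors divided by was 0.954 to 1.003 times the recovered total in combination samples and 1.026 to 1.041 times in DMSO samples. The fit was tested on simulated data. Library measures used an exact permutation test. Genes named are the 9, from each list the called genes of smallest p (up to 2 each way), the 2 most correlated genes and genes with overlapping exons; REST, RCOR3, SALL2, NEUROG1, genes named only from the fit without a filter and the defining cell type markers were added after their values were seen, as were those so described. The genes and lists were chosen with earlier results of these data known. Alternatives were pseudocounts of 0.1 and 5 FPKM, other filters, library totals, nuclear reads, median-of-ratios and upper-quartile factors, quantile normalization, voom on recovered reads, a term for replicate number, and each sample left out in turn. Figures used matplotlib 3.10.9.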

Additional observations from a re-analysis of the deposited data

Results flagged for a closer look

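In groups of 4 samples, a sample stood out where its gap to the nearest other, over the group's whole range, passed Dixon's 95% critical value. Of 82 groups examined over 41 genes, 4 met this, and chance gives about 1 in 20. SOX2 stood at 6.77 FPKM in combination sample 3, where the other 3 had 5.38 to 5.56 FPKM; without that sample its log2 fold change was -3.10. PROM1 stood at 0.0706 FPKM in combination sample 1, where the others had 0.0336 to 0.0393 FPKM, a difference of 8 reads against 4 or 5. VIM stood at 108 FPKM in combination sample 4, where the others had 118 to 120 FPKM. KDM1A stood at 35.0 FPKM in combination sample 1, where the others had 37.9 to 38.2 FPKM.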

How the results depend on the processing

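All 5 tested genes kept their direction and stayed past the threshold under each of 19 alternatives. The log2 fold change ran from -1.76 to -1.58 for NES, -3.31 to -2.46 for SOX2, -0.86 to -0.50 for SOX4, -2.46 to -0.76 for POU3F2 and 0.21 to 0.56 for OLIG2, with a largest adjusted p of 0.010 (OLIG2, limma without a filter on low values). The wide range of POU3F2 came from the pseudocount and voom. The number of the 9 genes called higher was 2 both without a filter and with a filter at 0.1 FPKM, since SOX9 then entered the test. Over all genes, 7747 were called higher without a filter, against 4902 with it. Other scalings moved the median of all genes by at most 0.08 (log2). Among the lists, quantile normalization left 3 genes lower in place of 5 in the list of REST and the genes listed with it. Over the 13 alternatives run, the lower count of that list ran from 3 to 6 and the higher count from 2 to 3. Without a filter on low values, chosen after seeing the data, the genes called higher were 3 relatives of the non-SOX genes, 3 propagating cell factors, 2 proneural and neurogenic factors, 4 proneural glioma markers and 4 filament genes, and 8 cartilage targets were lower. The replicate numbers are not said to pair the samples. Correlations of the deviations of same-numbered samples were 0.002, 0.050, -0.023 and 0.067, and those of differently numbered samples ran from -0.097 to 0.079. Such values show no shared deviation but cannot tell whether samples were set up in pairs. With the replicate number as a block, 4839 genes were higher and 5404 lower, and SOX2 kept a log2 fold change of -3.03. Leaving out each sample gave 4732 to 4805 genes higher and 5294 to 5360 lower. The values of MSI1, PROM1 and SOX11 rest on 0 to 32 reads per sample, and the scale with 1 FPKM added understates their fold changes. What else limits their tests was not examined.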
